A study of Mus musculus with 2148 samples.

Results

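Genes of 10 peptide precursors were followed in single thymic epithelial cells. The gut hormone genes were Pyy, Cck, Sct, Gast and Ghrl, and the neuropeptide genes were Nts, Gal, Npy, Tac1 and Penk. They are 10 of the 48437 genes of the deposited count table, chosen by name, and each was matched to 1 Ensembl gene by its symbol.

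The cells were sorted from the thymus of C57BL/6 mice as CD45-, EpCAM+ cells and were either Ly51+ (cortical, cTEC) or Ly51- with high or low surface MHC class II (medullary, mTEChi and mTEClo). Adult wild-type (WT) mice gave 620 mTEChi cells (31.3% of all cells, from mice of 4, 5 and 6 weeks), mTEClo cells (18.03%, 4, 5 and 8 weeks) and 77 cTEC (3.89%, 6 weeks). Adult Aire-deficient mice on the C57BL/6 background (Aire-KO, 5 weeks) gave mTEChi (17.1% of all cells) and mTEClo (7.78%). Newborn WT mice of 1 day gave mTEChi (8.64%), mTEClo (6.26%) and cTEC (7.02%), and all 3 sorts of these mice lay side by side on the same 5 plates. Each cell was read by RamDA-seq, which primes cDNA along the whole transcript and so also reads RNA without a poly(A) tail. Cells with the same group, age and sex labels were summed into 1 mouse pool, because the mice carry no numbers. This gave 4 pools of adult WT mTEChi (4-week female, 4-week male, 5-week male and 6-week male), 3 of adult WT mTEClo (4, 5 and 8 weeks, all male) and 1 pool in each other group. Pool values below follow that order. A pool may hold several mice or 1, and the p-values measure the spread between pools.

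Gut hormones are made by scattered enteroendocrine cells of the stomach and intestine, and neuropeptides by neurons. Both are cut from longer precursor proteins in secretory granules. Medullary thymic epithelial cells transcribe many such genes of other organs, so that T cells that recognise their products can be removed or turned into regulatory T cells. The transcriptional regulator Aire drives a large part of this transcription in mTEChi cells, and a given gene is usually on in a small share of the cells.

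Among the gut hormones, Pyy encodes peptide YY, a satiety hormone of the lower gut. Cck encodes cholecystokinin, which makes the gallbladder contract, and Sct encodes secretin, which makes the pancreas release bicarbonate. Gast encodes gastrin, which raises gastric acid, and Ghrl encodes ghrelin, the hunger hormone of the stomach. Among the neuropeptides, Nts encodes neurotensin, which is made both in the brain and in gut endocrine cells. Gal encodes galanin and Npy encodes neuropeptide Y, which stimulates feeding. Tac1 encodes substance P and neurokinin A, and Penk encodes the enkephalins, which are opioid peptides.

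The sequence before the start site is shown for 4 genes that the results turn on. Nts and Pyy had no read in Aire-KO mTEChi, Sct had about as many there as in WT, and Gast had cells with reads in both genotypes. Each is the 250 bases before a RefSeq start site in the build GRCm38.p6, 5′ to 3′ on the gene's own strand, with a searched motif in capitals. Nts lies on the minus strand (chr10:102490419-102490668), as do Pyy (chr11:102107833-102108082) and Sct (chr7:141279134-141279383), and Gast lies on the plus strand (chr11:100334157-100334406).

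Nts: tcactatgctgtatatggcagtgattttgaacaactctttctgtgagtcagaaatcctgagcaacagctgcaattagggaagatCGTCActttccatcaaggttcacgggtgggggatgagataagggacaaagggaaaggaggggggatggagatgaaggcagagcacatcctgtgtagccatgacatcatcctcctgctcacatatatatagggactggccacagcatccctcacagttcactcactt

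Pyy: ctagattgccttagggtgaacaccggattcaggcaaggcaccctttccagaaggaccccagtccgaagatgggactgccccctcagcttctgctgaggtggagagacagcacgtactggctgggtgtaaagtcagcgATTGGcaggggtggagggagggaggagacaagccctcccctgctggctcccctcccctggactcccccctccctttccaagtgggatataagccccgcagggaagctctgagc

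Sct: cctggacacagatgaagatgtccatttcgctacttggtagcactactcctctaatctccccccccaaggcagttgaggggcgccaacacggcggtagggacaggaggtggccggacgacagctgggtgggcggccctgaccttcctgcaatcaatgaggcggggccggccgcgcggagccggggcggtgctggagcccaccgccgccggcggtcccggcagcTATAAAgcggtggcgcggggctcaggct

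Gast: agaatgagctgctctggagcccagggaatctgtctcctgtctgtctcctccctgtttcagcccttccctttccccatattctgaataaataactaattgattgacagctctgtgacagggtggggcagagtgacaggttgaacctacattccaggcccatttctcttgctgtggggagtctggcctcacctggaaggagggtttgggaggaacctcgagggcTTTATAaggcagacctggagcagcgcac

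RefSeq start sites were found for 9 of the 10 genes, with 13 windows of 300 bases that ran from 250 bases before to 50 bases after the start. Penk had no entry. A motif was searched on both strands of these windows. The letters TATAAA (or their complement TTTATA) stood 28 bases before the start of both Sct and Gast, and of no other member, against 13.6% of the 32851 windows of all genes. The letters CCAAT (or ATTGG) stood in windows of Pyy, Npy, Tac1 and Ghrl, against 37.4% of all windows. The letters TGACG (or CGTCA), a part of the cAMP response element, stood in windows of Nts, Cck, Gal and Tac1, against 20.8% of all windows. None of the 3 motifs overlapped another in these windows, and a match of letters is no measurement of binding.

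All cells together held 1424841034 deduplicated reads, with a median of 692880 per cell (203010 to 1823784). Levels are given as CPM, the reads of a gene per 1e+06 reads on all genes. Aire itself had 1109.7 to 1844.6 CPM in the WT mTEChi pools and 26.1 CPM in Aire-KO mTEChi, and its Aire-KO against WT difference in mTEChi (log2 -5.69 ± 0.57 (SE), edgeR adjusted p = 0.272) did not pass the test over pools. Several libraries stood apart. In plates 1 (75 adult WT mTEChi cells) and 2 (all 66 cells of the 4-week mTEClo pool), 13 genes, Tac1 among them, had reads in every cell while having them in at most 50% of the cells of every other plate. Results for Tac1 are therefore given with and without these plates, an alternative chosen after the values were seen. The 5-week mTEChi pool held only 12 cells. In the 8-week mTEClo pool, labelled male, Xist had reads in 94.9% of the cells, with a median of 20.5 CPM in those cells. The 4-week female mTEChi pool had Xist reads in 100% of cells, with a median of 1108.8 CPM. Adult cTEC, also labelled male, had them in 42.9% of cells, with a median of 27.7 CPM. The summed level of 7 tuft cell markers was 5472 and 4839 CPM in the 4- and 5-week mTEClo pools, 566.9 CPM in the 8-week pool, 1473.8 CPM in Aire-KO mTEClo and 54.4 to 417.4 CPM elsewhere. The summed level of 6 cTEC markers was 5783 and 5769 CPM in adult and newborn cTEC and 2534 CPM in newborn mTEClo, where Psmb11, a cTEC proteasome gene, had reads in 98.4% of cells. The part of these differences in the results below was not tested.

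In adult WT mTEChi, Sct and Nts were the highest of the 10 genes per kilobase of exon. The level of Sct was 43.2 ± 7.27 CPM per kilobase (SD, n = 4 pools) and that of Nts was 32.0 ± 9.93. Pyy (19.7 ± 21.2), Gal (18.4 ± 17.4), Npy (15.3 ± 13.3), Gast (13.3 ± 16.0), Cck (11.0 ± 8.25) and Penk (8.06 ± 5.82) followed, and the order among these 6 lay within their spread. Ghrl (3.45 ± 0.904) and Tac1 (2.82 ± 1.9) were the lowest, and they did not differ beyond their spread either. The order was another in other sorts. Penk was first in adult cTEC (17.0 CPM per kilobase), newborn cTEC (36.1) and newborn mTEClo (24.7), while Nts (62.9), Sct (45.7) and Pyy (43.3) led in newborn mTEChi.

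**Figure D1:**
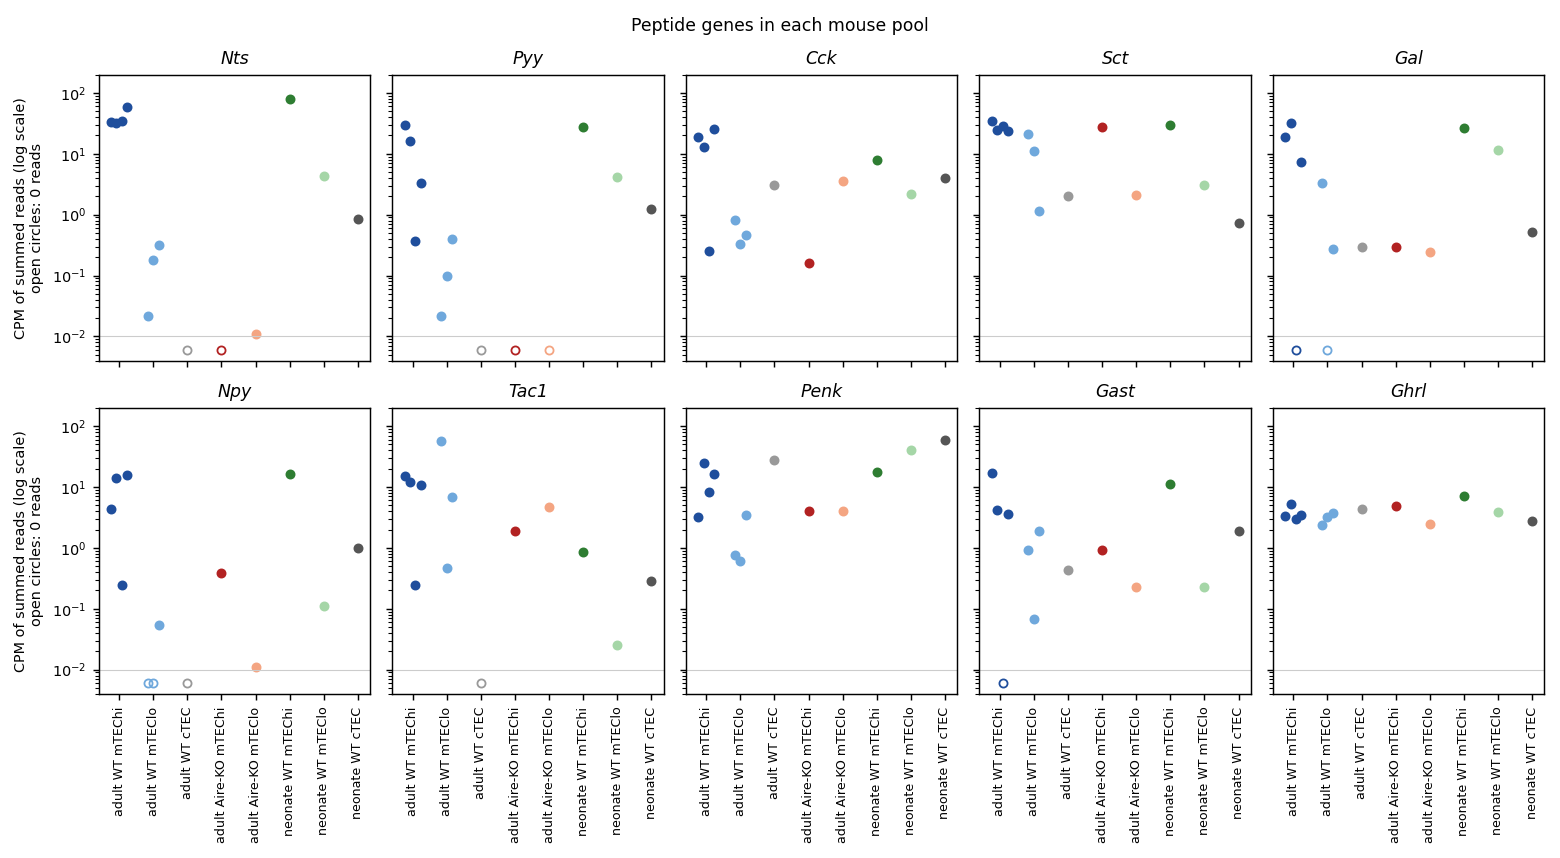
Level of each peptide gene in every mouse pool, as CPM of the summed reads on a log axis, in 8 groups; each point is 1 pool and open circles are pools with no read. Nts and Pyy are at 0 in Aire-KO mTEChi, Sct is at like levels in both genotypes of mTEChi, and Penk is highest in the newborn cTEC pool.

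Nearly every adult WT mTEChi cell had a read of at least 1 of the 10 genes, and a high level of any 1 gene was found in few cells. At least 1 gene was read in 97.1% of the 620 cells (87.9 ± 19.7% over 4 pools), and in 89.2% of the cells when each was thinned to 200000 reads (80.4 ± 15.3% over pools). The 12-cell pool lowered the mean: 58.3% of its cells had such a read, against 96.3 to 98.8% in the other 3 pools. In 61.9% of the cells 3 or more of the genes were read. At 100 CPM or more, a level chosen after the values were seen, 28.4% of the cells had at least 1 gene and 47 had 2 or more.

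The gene with reads in most cells was Sct (61.2 ± 13.3% of cells over pools, 48.98% thinned). Its median was 12.3 CPM in the cells with a read, and 46 cells at 100 CPM or more held 60.0% of its reads. Ghrl was read in 40.5 ± 7.86% of cells (31.2% thinned), but only 4 of them were at 100 CPM or more, and these held 18.4% of its reads. Reads on Ghrl were thus broad and low, and this was so in every group, with reads in 30.5 to 65.5% of cells. Ghrl overlaps other annotated genes and reads were counted without strand, so its counts are uncertain in part. In adult WT mTEChi its neighbour Tatdn2, 5050 bases away, was read in 98.9% of cells with a Ghrl read and 91.4% of the others. The part of RNA of other genes in the Ghrl reads was not tested.

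Nts was read in 41.7 ± 7.15% of cells (25.7% thinned) with a median of 4.07 CPM in those cells. Of them, 67.1% were below 10 CPM, 17.1% (43 cells) lay between 10 and 100 CPM, and 15.9% (40 cells) were at 100 CPM or more. These 40 cells held 92.7% of the Nts reads, and the highest stood at 1310.5 CPM. Other genes were like it in this: the cells at 100 CPM or more held 91.4% of the reads of Pyy (27 cells), 93% for Gal (35 cells), 86.4% for Cck (30 cells) and 88.4% for Penk (22 cells). At least 50% of the reads of each of these genes came from 7 to 13 cells. In small pools a level can therefore change with 1 or 2 such cells. Gal, Cck and Pyy at 0, 0.250 and 0.375 CPM in the 12-cell pool rest on 0, 2 and 3 reads. The cause of these low values was not tested.

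**Figure D2:**
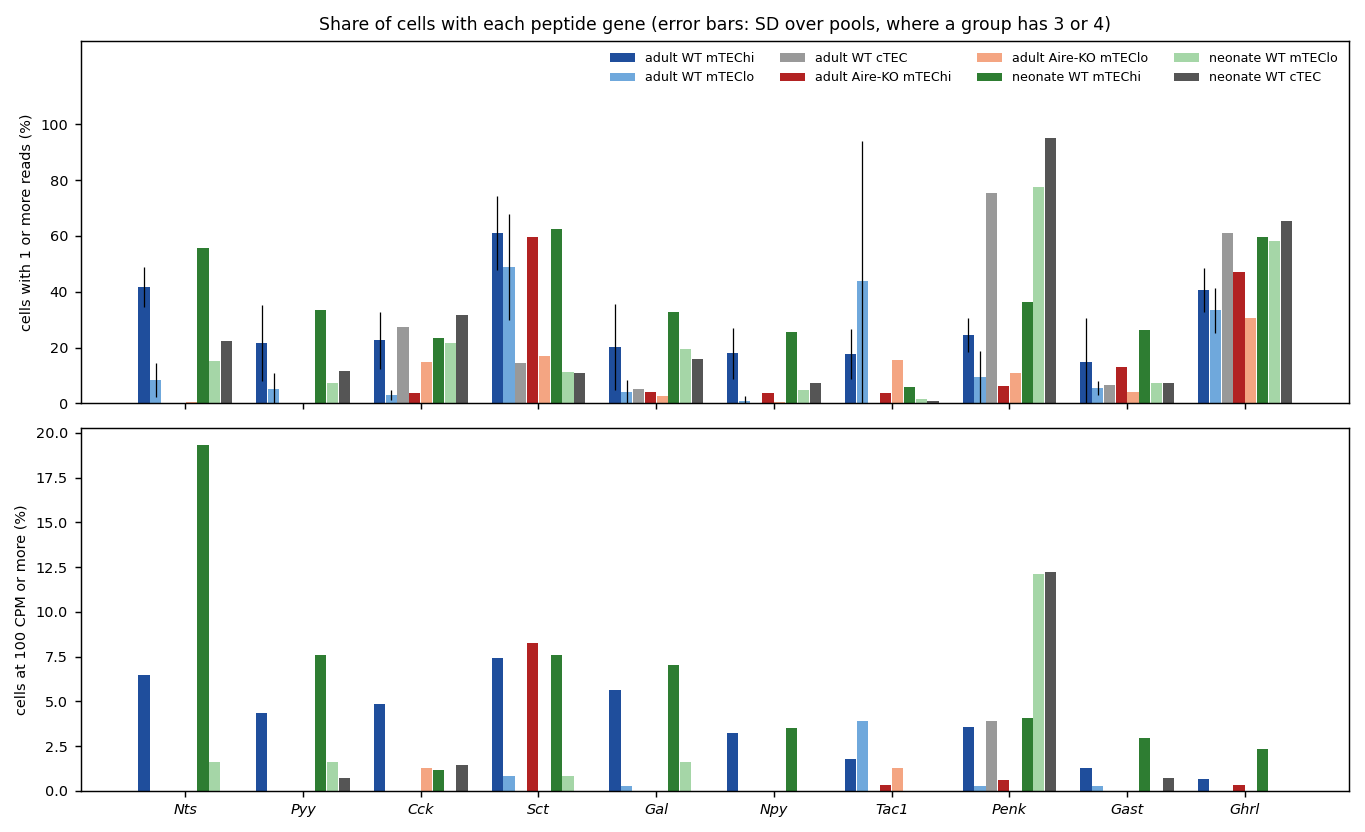
Share of cells with reads of each peptide gene in the 8 groups: the upper panel gives the mean percentage of cells with 1 or more reads, with the SD over pools where a group has 3 or 4, and the lower panel the percentage of all cells of the group at 100 CPM or more. In Aire-KO mTEChi Sct and Ghrl are read in 59.8% and 47.04% of cells, and Nts and Pyy are at 0.

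The comparison of Aire-KO with WT mTEChi asks which of these genes are transcribed at a lower level without Aire. Nts and Pyy had no read in any Aire-KO cell, and Cck was low, while Sct and Ghrl were at their WT levels. Nts stood at 33.6, 32.6, 35.2 and 58.5 CPM in the WT pools and at 0 in the Aire-KO pool of 292937643 reads. The 4 WT pools lay close together, and all 4 of the Aire-KO plates were at 0. With 3 reads as the floor of that pool, the mean WT level was at least 3902-fold higher, and the lowest WT pool at least 3183-fold. A count of 0 in that group allows a share of up to 0.888% of cells with a read. Reads are not counted molecules here, as the method has no molecular identifiers, so these floors and the intervals cover counting error only.

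Pyy stood at 29.5, 16.4, 0.375 and 3.36 CPM in the WT pools and at 0 in Aire-KO. The WT pools spread widely, with the 4-week pools high and the others low, and the lowest rests on 3 reads of 1 cell. The mean WT level was at least 1212.1-fold above the Aire-KO floor and the lowest pool at least 36.7-fold.

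Cck stood at 19.1, 12.8, 0.250 and 25.5 CPM in WT and at 0.16 CPM in Aire-KO. The 12-cell pool was close to Aire-KO and the other 3 were far above it. Cck reads were seen in 22.6 ± 10.3% of WT cells over pools (12.7% thinned) and in 12 Aire-KO cells (3.55%, 2.37% thinned), and 30 WT cells but 0 Aire-KO cells reached 100 CPM.

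Gal and Npy were also low in Aire-KO mTEChi, but 1 WT pool was at or below the Aire-KO level. Gal stood at 19.1, 31.4, 0 and 7.44 CPM in WT and 0.297 CPM in Aire-KO, with reads in 20.3 ± 15.4% and 4.14% of cells. Npy stood at 4.41, 14.0, 0.250 and 15.9 CPM in WT and 0.393 CPM in Aire-KO, with reads in 17.9 ± 9.02% and 3.55% of cells. In both, it was the 12-cell pool that overlapped. No Aire-KO cell reached 100 CPM of Gal or Npy, against 35 and 20 WT cells. Thinned to 200000 reads, Gal was read in 11.7% of WT and 2.66% of Aire-KO cells, and Npy in 13.3 and 2.96%.

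Penk stood at 3.19, 25.0, 8.39 and 16.1 CPM in WT and 3.96 CPM in Aire-KO, inside the WT range. Its share was 24.5 ± 6.04% of cells against 6.21%, and 1 Aire-KO cell held 64.5% of the Aire-KO reads, leaving 1.41 CPM without it. Thinned, the shares of Penk were 16.1 and 5.33%. Tac1 stood at 14.9, 12.3, 0.250 and 10.9 CPM in WT and at 1.89 CPM in Aire-KO, where 1 cell held 82.5% of the reads. The WT value of 12.3 CPM includes plate 1. Without plate 1 the WT level of Tac1 was 8.00 ± 6.35 CPM over pools (0.250 to 14.9 CPM), a range that holds the Aire-KO level. The WT share of cells with a Tac1 read was then 13.97 ± 4.59% over pools, against 3.55% in Aire-KO.

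Sct stood at 34.3, 24.7, 28.4 and 23.99 CPM in WT and at 27.9 CPM in Aire-KO, inside the narrow WT range. Its share was 59.8% of Aire-KO cells, and the median in cells with a read was 20.4 CPM against 12.3 CPM in WT. Ghrl stood at 3.32, 5.17, 3.00 and 3.42 CPM in WT and at 4.86 CPM in Aire-KO, with reads in 47.04% of cells (35.5% thinned, against 31.2% in WT). Gast stood at 16.8, 4.12, 0 and 3.53 CPM in WT and at 0.908 CPM in Aire-KO. Gast had reads in 13.0% of Aire-KO cells, against 14.9 ± 15.6% in WT, but none of the 44 Aire-KO cells was above 30.1 CPM, while 8 WT cells were at 100 CPM or more.

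None of the 10 genes passed the edgeR quasi-likelihood test over pools (adjusted p under 0.05 and at least 2-fold), nor did any of the 39971 genes tested (0% called in either direction). Of the 10, Nts, Pyy and Cck (3) were lower at an unadjusted p under 0.05, against 3.08% of all genes, and none was higher, against 1.21%. These 3 were also the members with the Aire-KO pool below every WT pool, against 17.5% of all genes, and none lay above every WT pool (16.5%). For Cck the log2 fold change was -6.36 ± 2.30 (SE, edgeR adjusted p = 0.935). The fitted values of the other 7 ran from -5.49 to 0.50. DESeq2 on the same sums called Nts (adjusted p = 3.24e-09), Pyy (0.000172) and Cck (0.00335) lower, against 2.32% of all genes, and none higher (0.149%). With plates as units, which do not measure the spread between mice, edgeR called Nts, Pyy, Cck, Gal and Npy lower, against 3.42%, and none higher (1.09%). The median log2 fold change of the 10 genes was -3.50, beside -0.16 over all genes tested. Leaving out any 1 pool, the 12-cell pool included, gave no call either. Aire-KO mTEChi is 1 pool of 1 age, and it was assumed to vary like the WT pools. Fewer cells of a kind and less RNA of a gene per cell cannot be told apart in the sums.

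**Figure D3:**
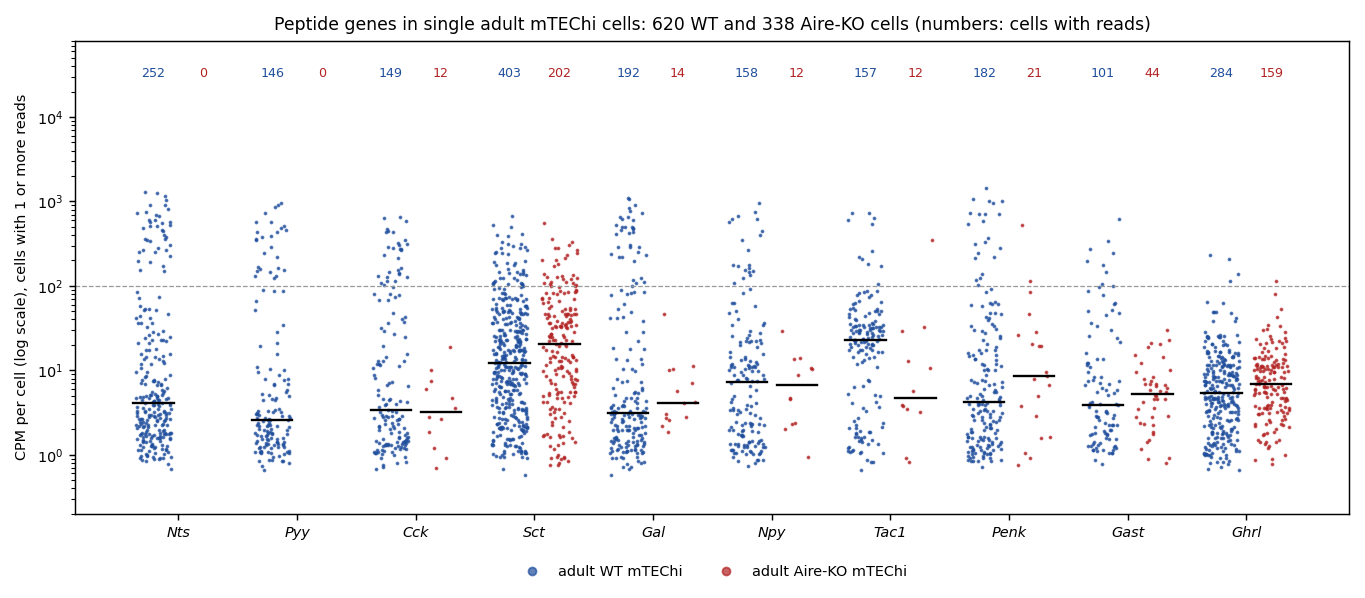
CPM per cell on a log axis for each peptide gene in the cells with a read, adult WT against Aire-KO mTEChi; black bars are medians, numbers are cells with a read, and the dashed line marks 100 CPM. For Cck, Gal, Npy and Gast the Aire-KO cells stop below the line, and for Sct 28 Aire-KO cells lie at or above it.

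Cells with a high level of a member other than Sct were rarer in Aire-KO mTEChi, a split made with the values known. A gene other than Sct was at 100 CPM or more in 24.03% of the 620 WT mTEChi cells (exact 95% interval 20.7 to 27.6) and in 4 Aire-KO cells (1.18%, 0.323 to 3.00). Those 4 cells stood out for Penk (2), Tac1 (1) and Ghrl (1). Sct was at 100 CPM or more in 46 WT and 28 Aire-KO cells, which were 11.4 and 13.9% of the cells with an Sct read. With Sct included, 28.4% of WT and 9.47% of Aire-KO mTEChi cells had a gene at 100 CPM or more. In the 4 WT pools this share was 36.6, 27.9, 25 and 23.2%. The intervals above cover counting error only, as cells of a pool are not replicates. The median depth was 772240 reads in WT and 812728 in Aire-KO mTEChi, with 559998 to 861831 in the WT pools. The part of depth in these shares was not tested. An exact permutation test of 4 pools against 1 cannot reach a p under 0.05, so none is given for shares.

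Within adult WT mTEChi, the cells with the least Aire transcript had Sct least often. With the 620 cells ordered by their Aire level and cut into 3 groups of like size, Sct was read in 54.6, 68.9 and 71.5% of cells, with a mean of 12.3, 28.6 and 39.8 CPM. Gast was read in 9.18, 15.05 and 24.6% of the same cells, and Nts in 41.5, 40.3 and 40.1%. Thinned to 200000 reads, Sct was read in 37.7, 58.7 and 57.97% of them, so its highest 2 groups were alike. Thinned shares of Gast were 5.80, 10.7 and 14.98%, and those of Nts 28.99, 26.7 and 26.1%. In 3 groups of 57 newborn mTEChi cells Sct was read in 57.9, 66.7 and 63.2%, while its mean level ran the other way, at 46.8, 33.7 and 19.3 CPM. Median depth in the adult groups was 750372, 844794 and 768885 reads, and these values are a description of cells with no test. The adult cells were ordered over all pools together, and Aire ran from 1109.7 to 1844.6 CPM between these pools. The 4-week female pool, at 1789.7 CPM of Aire, was also the highest for Sct (34.3 CPM) and Gast (16.8 CPM). The part of the pool in these shares was not tested.

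In mTEClo most of the genes were low in both genotypes, other than Sct and Tac1 in some WT pools, and no member was called between Aire-KO and WT (0% of all genes called by edgeR in either direction; at an unadjusted p under 0.05, Nts was lower, against 1.37% of all genes, and none was higher, against 2.11%). DESeq2 called 0 members (0.253% of all genes higher, 0.557% lower), as did edgeR over plates (0.0569 and 0.0163%). Nts stood at 0.0213, 0.183 and 0.320 CPM in the WT pools and at 0.0109 CPM in Aire-KO, where it was 1 read in 1 cell. The mean WT level was 16.0 times that of the 1 read, with a counting interval of 2.88 to 633.7. The fitted log2 difference of Nts was -4.00 ± 1.5 (edgeR adjusted p = 1). Pyy stood at 0.0213, 0.100 and 0.400 CPM in WT and at 0 in Aire-KO, where a count of 0 allows a share of up to 1.95%. For Nts and Pyy the Aire-KO pool lay below every WT pool, as it did for 13.6% of all genes.

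Cck and Penk were the members with the Aire-KO mTEClo pool above every WT pool, as it was for 25.9% of all genes. Cck stood at 0.810, 0.333 and 0.471 CPM in WT and at 3.58 CPM in Aire-KO, with reads in 14 (3.92%) and 23 cells (14.9%), or 2.79 and 11.7% of cells when thinned. In Aire-KO 2 cells held more than 50% of its reads, and both Aire-KO plates were above the WT pools, at 2.79 and 4.54 CPM. Penk stood at 0.767, 0.60 and 3.42 CPM in WT and at 4.03 CPM in Aire-KO. The summed cTEC markers were 677.6 CPM in Aire-KO mTEClo, against 111.8 to 399.2 CPM in the WT pools, and both genes had reads in adult cTEC (Cck in 21 of 77 cells, Penk in 58). The part of cTEC in these 2 values was not tested.

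Sct differed between the WT mTEClo pools, at 21.5, 11.1 and 1.15 CPM at 4, 5 and 8 weeks, and Aire-KO stood at 2.11 CPM within that range. Reads of Sct were seen in 63.6, 55.4 and 27.6% of the cells of the 3 WT pools and in 16.9% of Aire-KO cells. Each age is 1 pool, the tuft markers were high in the same 2 younger pools, and the age and the pool cannot be told apart. Ghrl was 2.34, 3.17 and 3.79 CPM in WT and 2.49 CPM in Aire-KO.

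Whether the effect of Aire loss differed between the sorts was asked with an interaction term, and no member passed it by edgeR (0% of all genes called; at an unadjusted p under 0.05, Nts and Cck were lower, against 2.12% of all genes, and none higher, against 1.23%). The Aire-KO effect on Cck in mTEChi less that in mTEClo was log2 -9.12 ± 2.79 (edgeR adjusted p = 1.00). DESeq2 called Cck and Nts lower here (0.352% of all genes, with 0 members and 0.196% higher), and edgeR over plates called Cck (adjusted p = 0.0146, against 0.0732%, with 0 members and 0.0813% higher).

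Adult WT mTEChi had more of Nts, Npy and Cck than adult WT mTEClo. The pool values stand above except for Npy in mTEClo, which was at 0, 0 and 0.0533 CPM. For Nts and Npy every mTEChi pool lay above every mTEClo pool, and this was so for Sct too, though its lowest mTEChi pool (23.99 CPM) was close to the highest mTEClo pool (21.5 CPM). Such a gap was found in 16.1% of all genes, and the opposite gap in 9.85% of all genes and 0 members. Cck overlapped, through the 12-cell pool at 0.250 CPM.

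Nts rose by log2 7.502 ± 0.84 (edgeR adjusted p = 0.00313), Npy by 8.26 ± 1.79 (0.0250) and Cck by 4.56 ± 1.25 (0.0496), so that 3 of 10 members were called higher, against 7.23% of all genes, and 0 lower, against 4%. At an unadjusted p under 0.05, Pyy and Penk joined them, against 21.4% higher and 12.9% lower among all genes. Pyy (5.82 ± 1.63, edgeR adjusted p = 0.0522) and Penk (2.75 ± 0.93, 0.0823) missed the threshold, and the others ran from -1.29 to 3.48. The median over the 10 was 3.11, beside 0.30 over all genes. DESeq2 called these 5 higher (19.9% of all genes higher, 7.64% lower), and edgeR over plates called 7 (24.9 and 9.21%), with Gal and Sct. Only the call of Nts held in every alternative run: without plates 1 and 2 (7.18 ± 0.57, adjusted p = 0.00509), and without the 4-week male mTEChi pool, the 4-week mTEClo pool or the 5-week mTEClo pool in turn, Nts alone was called. Cck also lost its call without the 4-week female or the 6-week male mTEChi pool, and with age and sex as terms in the fit, which leaves 1 residual degree of freedom and called Nts, Npy and Penk. Without the 12-cell pool Pyy was called as well, and without the 8-week mTEClo pool Nts, Npy and Penk were called.

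Cells at 100 CPM or more of a gene other than Sct were 24.03% in mTEChi and 4.76% (17 cells) in mTEClo. Without plates 1 and 2, the second of which is the 4-week mTEClo pool, they were 24.4 and 2.41% (7 cells). Median depth was 772240 against 592899 reads. Thinned to 200000 reads, Nts was read in 25.7% of mTEChi cells and 3.35% of mTEClo cells, and Ghrl in 31.2 and 26.2%.

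Tac1 values depend on plates 1 and 2. In plate 1 all 75 mTEChi cells had Tac1 reads, with 12.6 CPM in the lowest cell and 29.9 CPM as the median, and in plate 2 all 66 mTEClo cells had them, with 25.3 and 56.5 CPM. In the other plates of the series 0 to 36.4% of cells had Tac1 reads. The level was 56.9 CPM in the 4-week mTEClo pool, which is plate 2 alone, against 0.467 and 6.74 CPM in the 5- and 8-week pools.

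Without these 2 plates, Tac1 was 8.00 ± 6.35 CPM over 4 pools in mTEChi and 3.60 ± 4.43 CPM over 2 pools in mTEClo. The other 12 genes that shared this pattern were Ins1, Ins2, Il6, Cd3g, Edil3, Bmp10, Gdf2, Postn, Kera, Ros1, Scn2a and Gm5551. They were found by a screen made after the Tac1 values were seen. Edil3 was also the gene whose level went most closely with that of Tac1 over the WT mTEChi cells with a Tac1 read (Pearson r = 0.516 of log2(CPM + 1)), and over the 82 such cells outside plate 1 r was 0.345, with Edil3 read in 5 of them.

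**Figure D4:**
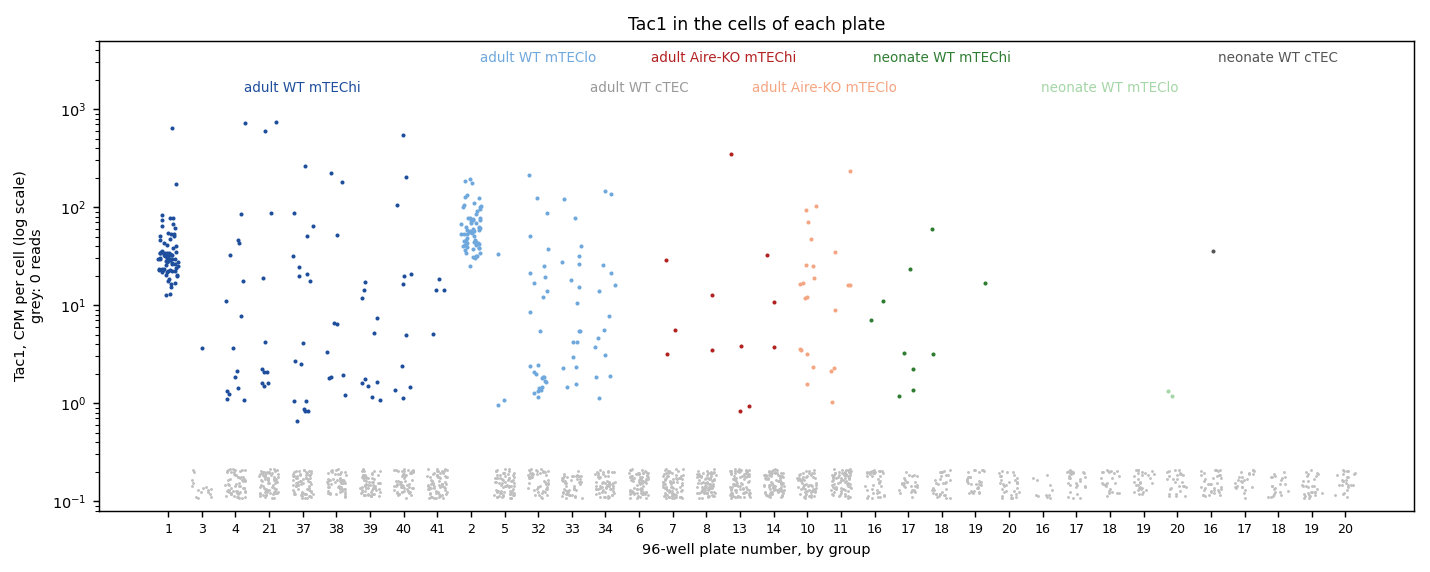
Tac1 level per cell (CPM, log axis) in every plate, arranged by group; each point is 1 cell and grey points are cells with no read. Every cell of plates 1 and 2 has Tac1 reads, at 12.6 CPM or more, while most cells of the other plates have none.

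Newborn mTEChi had reads of all 10 genes. Nts was highest, at 78.5 CPM with reads in 95 cells (55.6%), above the adult pools (32.6 to 58.5 CPM). Npy at 16.4 CPM and Ghrl at 7.15 CPM also lay above every adult pool, as did 20.1% of all genes, and none lay below every adult pool (12.3%). No member was called by edgeR, nor was any gene (0%; at an unadjusted p under 0.05, 0 members, against 1.49% of all genes higher and 0.485% lower). DESeq2 called 0 members (0.0325% of all genes higher, 0.0596% lower), as did edgeR over plates (0.71 and 0.536%). The fitted log2 values ran from -3.48 for Tac1 to 1.15 for Pyy, with a median of 0.91 beside -0.05 over all genes. Sct stood at 29.5 CPM, inside the adult range of 23.99 to 34.3 CPM, and Tac1 at 0.847 CPM, above the 12-cell pool only. A gene other than Sct was at 100 CPM or more in 62 cells (36.3%).

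In newborn mTEClo the values of Nts, Pyy and Penk were above the adult pools, but did not pass the edgeR test. Nts stood at 4.27 CPM (adult pools 0.0213 to 0.320), Pyy at 4.08 CPM (0.0213 to 0.400) and Penk at 40.4 CPM (0.60 to 3.42). These 3 and Cck, Gal, Npy and Ghrl lay above every adult pool, as did 34% of all genes, and Tac1 lay below (19.1%). The log2 difference was 4.39 ± 0.85 for Nts (edgeR adjusted p = 0.155), 4.49 ± 1.16 for Penk (0.275) and 4.32 ± 1.76 for Pyy (0.476), and no gene was called (0% in either direction; at an unadjusted p under 0.05, the same 3 members were higher, against 5.55% of all genes, and Tac1 lower, against 4.29%). DESeq2 called Nts and Penk higher (2.55% of all genes) and Tac1 lower (2.99%), and so did edgeR over plates (6.13 and 7.73%). Without the 8-week adult pool edgeR over pools called Nts.

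Single cells carried much of this. The Nts level was 2.30 CPM without its highest cell, that of Pyy 1.44 CPM, and that of Gal 1.84 CPM against 11.4 CPM with it. Penk had no such cell: 96 cells (77.4%) had reads, and Penk stood at 39.2 CPM without the highest. Tac1 had 2 reads in newborn mTEClo, and the adult level against it rests on plate 2. The mean adult level was 856.002 times the newborn one, with a counting interval of 236.97 to 7068, and the log2 difference of -9.72 ± 3.80 (edgeR adjusted p = 0.462) was -7.25 ± 3.06 (0.658) without plates 1 and 2.

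Penk was the enkephalin precursor of cortical cells as well. It had reads in 58 of 77 adult cTEC (27.7 CPM, median 24.8 CPM in those cells) and in 94.96% of newborn cTEC (58.96 CPM, median 58.1 CPM). Its 5 newborn cTEC plates lay between 52.8 and 64.8 CPM. In mTEChi the Penk reads were in 29.4% of adult and 36.3% of newborn cells with medians of 4.19 and 4.31 CPM, below those of the cTEC. In newborn mTEClo, where the cTEC markers stood at 2534 CPM, the median was 46.1 CPM. The part of cTEC in that sort was not tested.

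Adult cTEC had no read of Nts, Pyy, Npy or Tac1 in 77 cells, which allows up to 3.90% of cells for each. Newborn cTEC did have reads of these genes, with Nts in 31 cells (22.3%, median 1.71 CPM in those cells, none at 100 CPM). Aire was read in 95.7% of newborn cTEC (58.013 CPM over the pool) and in 10 of 77 adult cTEC. The newborn cTEC shared their plates with newborn mTEChi, whose Nts level was 78.5 CPM, and the adult cTEC had plate 6 to themselves. Age and shared plates cannot be told apart here. In newborn cTEC 1 cell held 77.6% of the Pyy reads and 1 cell held 93.3% of the Gast reads. Cck had reads in 21 of 77 adult and 44 newborn cTEC (31.7%), at 3.04 and 3.96 CPM.

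Pyy was often read in the same cells as its neighbour Ppy, the pancreatic polypeptide gene that lies 5357 bases away on chromosome 11. In adult WT mTEChi, Ppy had reads in 45.2% of the cells with a Pyy read (66 cells) and in 8.86% of the other cells. Of 27 cells at 100 CPM or more of Pyy, 15 were at 100 CPM or more of Ppy too. Pearson r of log2(CPM + 1) was 0.70 over the 620 cells and 0.714 over the cells with a Pyy read, the highest of any protein-coding gene over those cells. Newborn mTEChi gave 36.8% against 7.89% and r = 0.74. In Aire-KO mTEChi, where Pyy was at 0, Ppy had 1 read, against 20.3, 8.45, 0.125 and 3.52 CPM in the WT pools. Other neighbours within 100 kb had a lower r, such as Nags for Pyy (0.32). For the other members with such neighbours, the highest r ran from 0.05 for Nts to 0.33 for Sct (Irf7). Points of 1 cell share its library and depth, and r is given as a description.

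**Figure D5:**
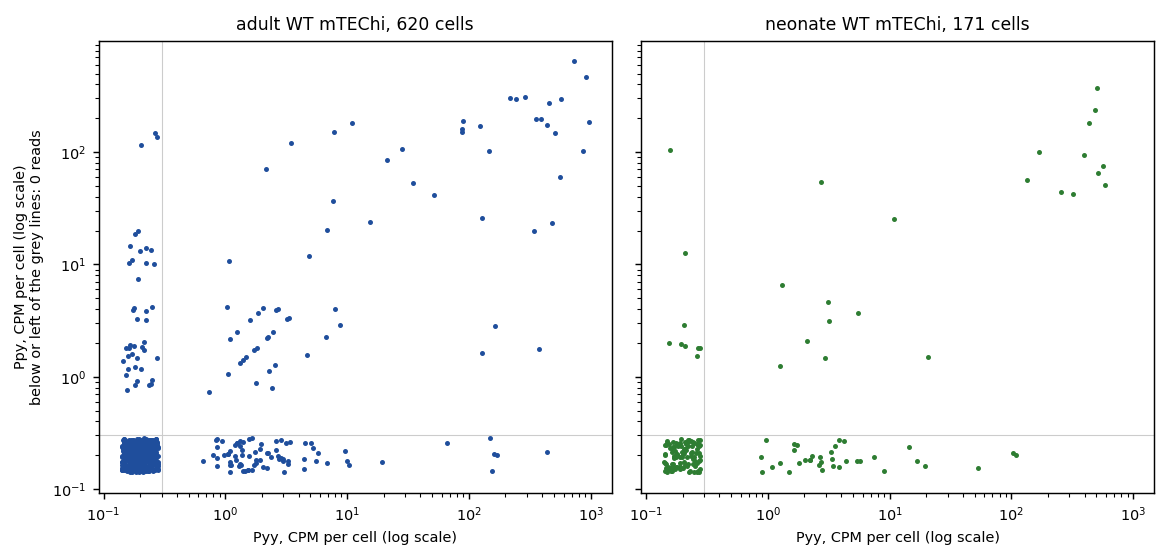
Pyy against Ppy per cell (CPM, log axes) in adult and newborn WT mTEChi cells; each point is 1 cell, and points beyond the grey lines have no read of that gene. Of the adult cells with Pyy, 66 also have Ppy, and 15 cells are at 100 CPM or more for both.

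Between members the correlations were weak. Over the 45 pairs of members, the median r was 0.06 in adult WT mTEChi and the highest was 0.22, between Pyy and Npy. No protein-coding gene reached r of 0.5 with a member over the cells with a read of it, other than Ppy for Pyy and Edil3 for Tac1.

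Other peptide genes, a list of 22 that included Vip, Sst, Gcg and the calcitonin gene products, were examined beside the members. Of these, 11 were called higher in mTEChi than in mTEClo by edgeR, led by Nmu (log2 11.23), Vip (6.81), Pdyn (5.32) and Sst (5.11), against 7.23% of all genes. In Aire-KO mTEChi edgeR over pools called none, and DESeq2 called 7 of the 22 lower, against 2.32% of all genes. Calcb, the most abundant of them, stood at 200.3 to 294.4 CPM in the WT mTEChi pools and 282.8 CPM in Aire-KO. Tac2 and Sst, chosen after their values were seen, had 0.0580 and 0.0102 CPM in Aire-KO against 21.6 to 70.9 and 1.58 to 49.7 CPM in the WT pools. WT mTEChi cells at 100 CPM or more of Nts had a median of 736.3 CPM summed over these 22 genes, against 282.3 CPM in the cells with no Nts read. The same order held for Pyy (891.5 against 310.6), Cck (791.5 against 340.1), Sct (760.8 against 214.4), Gal (616.6 against 341.6), Npy (787.7 against 326.4) and Penk (389.3 against 329.3). The 22 genes include Ppy, which was often read in the same cells as Pyy, so the Pyy gap is partly built in. Their sum was 515.98 to 683.8 CPM in the WT mTEChi pools, and Calcb alone made up a large part of it. The part of Calcb, of depth and of the pool in these gaps was not tested. Tac1, with 11 cells at 100 CPM or more, is not given here. Gast (8 cells) and Ghrl (4 cells) had fewer than 10 such cells.

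Receptors of the members were transcribed in mTEChi as well. Of 20, 5 were called higher in mTEChi than in mTEClo (Ntsr1 by log2 8.72, Ghsr by 8.18, Cckar by 5.74 and Oprd1 by 4.95 as the largest) and Sort1, which sorts proteins to lysosomes and binds neurotensin, was called lower (-1.97), against 7.23% of all genes higher and 4% lower. Their summed level ran from 183.2 to 303.6 CPM in the mTEChi pools and was 678.98, 518.9 and 127.1 CPM in the mTEClo pools, where Sort1 was the most abundant of them (104.6 to 646.03 CPM). Ntsr1, the neurotensin receptor, was at 0.125 to 32.7 CPM in the WT mTEChi pools and at 0 in Aire-KO mTEChi. In the other lists too the shares of all genes are 7.23% higher and 4% lower. Of 12 processing and granule genes, Vgf was called higher (log2 4.04), and the amidating enzyme Pam was at 354.3 to 407.3 CPM in mTEChi and 348.7 to 487.3 CPM in mTEClo. Of 14 endocrine transcription factors, Insm1 was called higher and Isl1 lower, and of 7 peptidases that break peptides down, Ece1 was called lower (-1.15). In both Aire-KO comparisons edgeR over pools called no gene of these lists.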

How the data were processed

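The deposited table holds raw whole-number counts for 1980 cells: adult WT 620 mTEChi, 357 mTEClo and 77 cTEC, Aire-KO 338 mTEChi and 154 mTEClo, newborn 171 mTEChi, 124 mTEClo and 139 cTEC. For them, the authors trimmed reads to 50 bases, cleaned them with fastp 0.20.0, mapped them to mm10 with STAR 2.7.3a (Ensembl 99 genes), dropped reads of mapping quality under 5 (SAMtools 1.9) and duplicates (Picard 2.21.1), and counted them with htseq-count 0.11.2 without strand. Penk and Ghrl overlap other annotated genes, so their counts are uncertain in part. Cells had over 200000 reads on over 8000 genes. For 168 cells sequenced in 2 runs, how the runs were joined is not given in the sources used here.

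Symbols came from GENCODE M21 (GRCm38). Sums of 11 mTEC pools were tested with edgeR 4.0.16 in R 4.3.3 (robust quasi-likelihood, TMM, filterByExpr, 5 residual degrees of freedom, 2-sided, Benjamini-Hochberg adjusted over 39971 genes, all 10 members included) and checked on simulated counts. A call needed an adjusted p under 0.05 and 2-fold. DESeq2 1.42.0, limma 3.58.1, plates as units, RLE scaling, no filter, age and sex as terms and leaving out each pool were alternatives. Shares were also computed at 5 reads and after thinning to 200000 reads, and exact (Clopper-Pearson) intervals are at 95%. A difference of a member is printed with its error where it exceeded 2 SE and no compared group was at 0 reads. For this reason Nts and Pyy in Aire-KO against WT mTEChi, and Nts in the interaction, have none, though they exceeded 2 SE. The members and the gene lists were chosen with earlier results of these data known. No sample column was left unused.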

Additional observations from a re-analysis of the deposited data

Results flagged for a closer look

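In adult WT mTEChi, 58.3% of the cells of the 5-week male pool (7 of 12; exact 95% interval 27.7 to 84.8) had a read of at least 1 of the 10 genes, which stood apart from the 96.3 to 98.8% of the other 3 pools. In the same group, Nts stood at 58.5 CPM in the 6-week male pool and at 32.6 to 35.2 CPM in the other 3. The gap was measured against the range of the group for 21 groups of values, and 2 stood apart, where chance flags about 1 in 20.

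Cck was below every WT pool in Aire-KO mTEChi and above every WT pool in Aire-KO mTEClo. The log2 difference between those effects was -9.12, with an edgeR adjusted p = 1.00 over pools. DESeq2 and edgeR over plates called it. Without its highest cell, Cck was 2.06 CPM in Aire-KO mTEClo, which remained above the highest WT pool (0.810 CPM).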

How the results depend on the processing

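The count of members called in Aire-KO against WT mTEChi was 0 by edgeR over pools, 3 by DESeq2 and 5 over plates. For mTEChi against mTEClo it was 3, with 5 by DESeq2, 1 by limma, 7 over plates, 1 without plates 1 and 2 and 1 to 4 when each pool was left out. For the interaction DESeq2 gave 2 and plates gave 1. For newborn against adult mTEClo, where edgeR gave 0, DESeq2 gave 3, limma 1 (Penk) and plates 3, and leaving out each pool gave 0 to 1 (Nts without the 8-week pool). The other comparisons stayed at 0 when each pool was left out. The fitted values given with an error kept their direction in the alternatives run, and among the planned ones 24 came newly past the threshold and 12 no longer passed it. The cause of these changes was not tested.

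The share of cells with a read of any member changed with the limit. At 5 or more reads it was 66.04% in adult WT mTEChi, 64.4% in WT mTEClo, 84.4% in adult cTEC, 64.2% in Aire-KO mTEChi, 43.5% in Aire-KO mTEClo, 75.4, 85.5 and 96.4% in newborn mTEChi, mTEClo and cTEC. At 100 CPM or more it was, in the same order, 28.2, 7.59, 3.90, 9.47, 2.60, 39.8, 16.9 and 15.1%, and the WT mTEClo value was 2.29% without the 4-week pool (plate 2). Thinned to 200000 reads it was 73.1% in Aire-KO mTEChi, 55.2% in Aire-KO mTEClo and 93.6% in newborn mTEChi. Leaving out each pool gave 84.2 to 97.7% in WT mTEChi and 80.2 to 92.4% in WT mTEClo. At 5 or more reads the WT mTEClo pools stood at 100, 58.1 and 35.02% at 4, 5 and 8 weeks. The first of these is plate 2, where every cell had Tac1 reads, so the mean of 64.4% leans on that plate.

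No paired analysis was possible because the numbers in the labels name cells, not mice. A fit of mTEChi against mTEClo with age and sex as terms (1 residual degree of freedom) called 3 members, Npy, Nts and Penk. A group of 1 pool has no spread of its own, and at this depth a gene with few reads per pool rests on 1 to 3 cells.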
